A study of Homo sapiens with 4 samples.

Results

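Collagens, laminins and integrins are the chains of the extracellular matrix and the receptors that hold cells to it. Their transcripts were measured by RNA-seq in cells labelled A549, a human cell line from a lung adenocarcinoma, after transfection of a small interfering RNA that targets *DLX6* (si-DLX6) or of a control one (si-control). The genes were taken by symbol, from the names of collagen alpha chains, of laminin alpha, beta and gamma chains, and of integrin alpha and beta subunits. Of 51136 rows in the table, 84 carried such a symbol, and 27 of these reached at least 1 FPKM (reads scaled to the length of the gene and the total of the library) in at least 2 of the 4 libraries. The 27 were 7 collagen, 8 laminin and 12 integrin genes. The 12 include *ITGB1P1*, a pseudogene of *ITGB1*, which is also part of all counts of the 27. A further 44 rows lay above 0 but under that level, and 13 were at 0 in every library. *ITGB1BP1*, *ITGB1BP2* and *ITGB3BP*, which encode integrin-binding proteins, were left out by name. The 27 genes were thus chosen by symbol and by FPKM level over all 4 libraries, and 0 of them reached it through the libraries of 1 group alone. The second-highest value of a gene had to reach 1 FPKM. It was 1.30 for *LAMC3*, 1.46 for *ITGA2B* and 1.53 for *COL27A1*, the lowest inside, and 0.984 for *LAMA3*, 0.915 for *ITGAM* and 0.903 for *COL4A5*, the highest outside.

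There were 2 si-DLX6 libraries, labelled with the genotype DLX6 knockdown, and 2 si-control libraries, labelled WT. All 4 came from the same line kept in serum-containing medium, and for all 4 the labels also list an adipogenic differentiation treatment on which titles and transfection protocol are silent. Separate cultures are not named for the libraries of a group, so p-values reflect only how these libraries vary, and that variation may be technical. The recovered library totals were 10485013 and 10665357 reads with si-DLX6, and 12075285 and 9678221 reads with si-control. *DLX6*, a distal-less homeobox transcription factor, had 0.916 and 0.450 FPKM with si-DLX6, against 3.27 and 3.47 FPKM with si-control. These values followed the labels in all 4 libraries (log2 fold change −1.39, SE 0.20, adjusted p = 0.00859, limma with Benjamini-Hochberg adjustment). They rest on 18 and 9 recovered reads with si-DLX6, and 74 and 63 with si-control. *DLX6* passed the level filter through the si-control libraries alone. With no filter on low values its adjusted p was 0.0667 (limma).

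The markers of the labelled cell type were present in part. *KRT18*, an epithelial keratin, had 464 and 422 FPKM with si-DLX6, and 475 and 447 FPKM with si-control. *KRT8*, its partner keratin, had 111 and 100.1 FPKM with si-DLX6, against 138 and 123 FPKM with si-control, and *KRT7* had 1.04 and 1.33 FPKM with si-DLX6, against 0.589 and 0.666 FPKM with si-control. The groups overlapped for *KRT18* alone of these 3, while over all genes tested 63.0% had groups that do not overlap. None of the 3 passed the test (adjusted p 0.0971 to 0.739, limma). *KRT7* reached the level filter through the si-DLX6 libraries alone. *EPCAM*, *CDH1*, *KRT19* and *ALDH1A1* stayed under the level filter, and *SCGB3A1* was at 0. Of 7 fibroblast markers 0 passed the filter, their summed level was 0.291 and 0.470 FPKM with si-DLX6 against 0.201 and 0.235 FPKM with si-control, and *THY1*, *LUM* and *DPT* were at 0. Of 7 adipocyte markers 1 passed (*PPARG*), their sum was 2.90 and 2.91 FPKM with si-DLX6 against 1.97 and 2.08 FPKM with si-control, and *ADIPOQ* and *LEP* were at 0. Endothelial markers summed to at most 0.138 FPKM and leukocyte markers to at most 0.251 FPKM in any library, and *CDH5*, *PTPRC* and *CD3E* were at 0. In such bulk RNA, fewer cells of a type and less RNA per cell cannot be told apart.

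Collagens are trimers of alpha chains that form fibrils, microfibrils or networks, and some span the membrane. A laminin is a cross-shaped trimer of 1 alpha, 1 beta and 1 gamma chain, secreted into the basement membrane under an epithelium. An integrin is a heterodimer of an alpha and a beta subunit that binds matrix outside the cell and cytoskeletal adaptors inside it. In epithelia, the integrin made of *ITGA6* and *ITGB4* sits in hemidesmosomes together with the transmembrane collagen *COL17A1* and binds a laminin that contains *LAMA3* and *LAMB3*.

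Promoter windows, from 250 bases before to 50 bases after the annotated start, were found in the RefSeq table (GRCh38.p14) for 21 of the 27 genes, 29 windows in all. *DLX6* belongs to the homeobox factors, whose DNA-binding core is often written TAATT, so these letters were searched on both strands (AATTA on the other strand), together with the AP-1 motif TGANTCA, which reads the same on both strands. Both motifs were chosen after expression values were known. TAATT was in 3 of the 29 windows and in 24.8% of all 35116 windows of the same length. Of the genes called changed below it stood in *COL17A1* and *LAMA2*, and the other window was that of *LAMB1*. TGANTCA was in 2 of the 29 windows, 1 of *LAMB3* and that of *ITGA5*, and in 7.71% of all windows. A match of letters is not a binding site, and both motifs also occur in many other windows. Of the genes called higher with si-DLX6, 6 had a window, 2 of them with TAATT and 1 with TGANTCA. The windows of *COL6A2* and *ITGB5* hold neither motif and are not printed. The 4 windows below are 1 for each of the others. They are printed 5′ to 3′ on the strand of the gene, with motif letters in capitals, and that of *LAMB2* holds neither motif.
COL17A1 (chr10:104085831-104086130, minus strand, TAATT 103 bases before the start): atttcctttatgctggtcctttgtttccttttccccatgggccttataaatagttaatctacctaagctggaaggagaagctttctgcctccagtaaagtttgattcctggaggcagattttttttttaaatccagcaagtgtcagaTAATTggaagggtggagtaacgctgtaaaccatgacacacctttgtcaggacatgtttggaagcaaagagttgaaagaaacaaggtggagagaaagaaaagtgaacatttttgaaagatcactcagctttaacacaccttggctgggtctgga
LAMA2 (chr6:128882888-128883187, plus strand, AATTA 214 and TAATT 202 bases before the start): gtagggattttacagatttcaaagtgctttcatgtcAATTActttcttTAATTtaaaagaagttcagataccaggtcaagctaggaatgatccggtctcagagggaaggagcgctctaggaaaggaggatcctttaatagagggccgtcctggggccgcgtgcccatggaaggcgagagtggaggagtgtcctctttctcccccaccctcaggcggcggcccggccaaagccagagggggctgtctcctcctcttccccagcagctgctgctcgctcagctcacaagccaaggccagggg
LAMB3 (chr1:209651325-209651624, minus strand, 1 of 3 annotated starts, TGACTCA 67 bases before it): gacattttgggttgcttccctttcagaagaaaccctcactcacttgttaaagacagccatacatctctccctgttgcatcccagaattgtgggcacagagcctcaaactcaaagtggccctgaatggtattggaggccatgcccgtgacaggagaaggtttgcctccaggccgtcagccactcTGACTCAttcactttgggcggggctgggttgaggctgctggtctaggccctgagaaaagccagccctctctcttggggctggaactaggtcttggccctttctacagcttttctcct
LAMB2 (chr3:49133001-49133300, minus strand): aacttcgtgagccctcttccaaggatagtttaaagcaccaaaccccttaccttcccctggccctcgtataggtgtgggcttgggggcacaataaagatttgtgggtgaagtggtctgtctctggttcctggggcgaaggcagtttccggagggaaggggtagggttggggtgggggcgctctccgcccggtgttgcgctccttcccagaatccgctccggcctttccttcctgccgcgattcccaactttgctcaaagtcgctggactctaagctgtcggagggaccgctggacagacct

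With si-DLX6, 7 of the 27 genes rose and 0 fell at an adjusted p under 0.05. The test was limma on log2(FPKM + 1), with Benjamini-Hochberg adjustment over all 15504 genes tested. The genes that rose were the collagens *COL17A1* and *COL6A2*, the laminin chains *LAMA2*, *LAMB2* and *LAMB3*, and the integrin subunits *ITGB4* and *ITGB5*. Over all genes tested, 19.6% were called in either direction, 10.2% higher (1575 genes) and 9.49% lower (1471 genes), against 25.9% of the 27 in either direction. Median-of-ratios scaling gave 1088 genes higher and 1816 lower. The median log2 fold change was 0.27 for collagens, 0.22 for laminins and 0.30 for integrins, against 0.05 over all genes tested. Both si-DLX6 libraries lay above both si-control libraries for 17 of the 27 genes and below them for 2, while over all genes these shares were 35.1% and 27.9%. Groups that do not overlap were thus seen for 19 of the 27 genes, against 63.0% of all genes. At an unadjusted p under 0.05, 4 collagens, 3 laminins and 4 integrins passed, 11 of the 27, as did 5598 of all 15504 genes. The 27 genes were picked with earlier results of these data known, so their share of calls is a description.

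How firmly each call stood differed. *ITGB4* and *LAMB2* kept an adjusted p under 0.05 with any 1 library left out. *LAMA2* kept it without si-DLX6 library 1 only, and *COL17A1*, *COL6A2*, *LAMB3* and *ITGB5* kept it in none of these fits (limma, Benjamini-Hochberg). Without the filter on low values 0 of the 27 were called, with the 7 adjusted p-values between 0.0505 and 0.114. Of all genes, 167 were then called higher and 205 lower. With limma-voom on the recovered reads the 7 were called again, and *COL12A1*, *ITGB1* and *ITGA3* joined them as higher and *COL18A1* as lower.

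**Figure D1:**
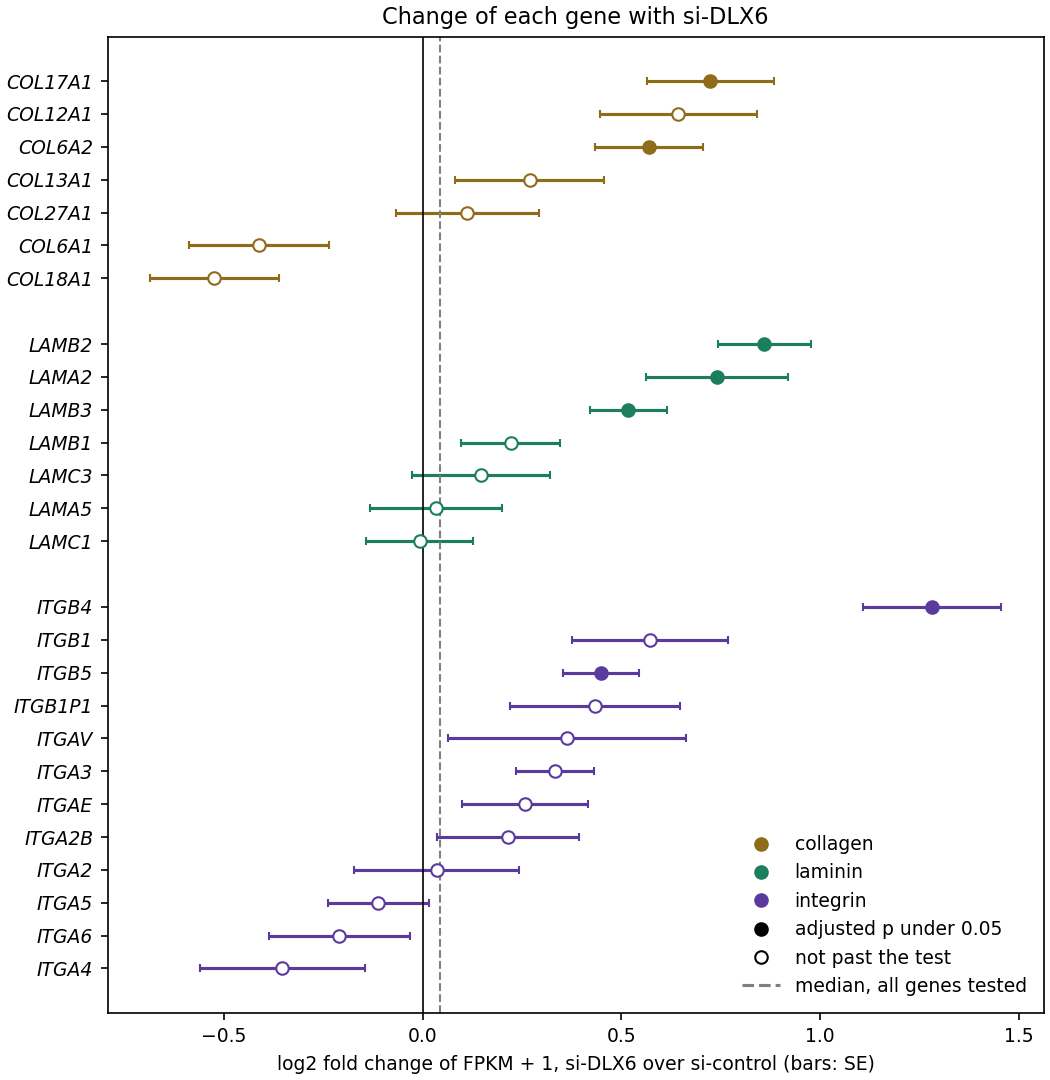
Log2 fold change of FPKM + 1, si-DLX6 over si-control, for 26 of the 27 genes (bars: SE, 2 libraries a group); filled points have an adjusted p under 0.05 and the dashed line is the median over all genes tested, 0.05. The 7 filled points all lie to the right of 0, from 0.45 for *ITGB5* to 1.28 for *ITGB4*.

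Among laminins, the beta chains *LAMB2* and *LAMB3* and the alpha chain *LAMA2* rose. *LAMB2*, a beta chain known from basement membranes of the neuromuscular junction and the kidney glomerulus, had 20.6 and 23.2 FPKM with si-DLX6, against 11.5 and 11.7 FPKM with si-control. These averaged 21.9 ± 1.88 FPKM and 11.6 ± 0.106 FPKM (SD, n = 2 each). The groups stood well apart, and the log2 fold change was 0.86 (SE 0.12, adjusted p = 0.00782, limma with Benjamini-Hochberg adjustment; 0.0167 to 0.0274 with 1 library left out). Per library total, si-DLX6 reads were 189% of si-control reads (exact 95% interval 177% to 202%; this and the other read intervals cover counting error only). In GENCODE release 29 (GRCh38) *LAMB2* lies on chromosome 3 from 49121114 to 49133118, on the minus strand.

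*LAMB3*, the beta chain of the epithelial laminin that binds hemidesmosomes, had 40.9 and 41.1 FPKM with si-DLX6, against 27.9 and 28.8 FPKM with si-control. It was the most abundant laminin chain in all 4 libraries, and its groups did not overlap. It rose by 0.52 on the log2 scale (SE 0.10, adjusted p = 0.0168, limma with Benjamini-Hochberg adjustment), and its reads were 145% of si-control (138% to 152%). With any 1 library left out, its adjusted p was 0.0535 to 0.0649 (limma). The gene spans 209614870 to 209652466 on the minus strand of chromosome 1 in the same annotation. *LAMA3*, the alpha chain of the same laminin, was just under the level filter and was not tested, at 0.984 and 1.26 FPKM with si-DLX6, against 0.427 and 0.659 FPKM with si-control. Its reads were 110 and 143 with si-DLX6 and 55 and 68 with si-control, or 212% of si-control per library total (170% to 265%). *LAMA3* thus had both si-DLX6 libraries above both si-control libraries, as *LAMB3* did.

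*LAMA2*, the alpha chain of the laminin of muscle and peripheral nerve, had 4.36 and 5.70 FPKM with si-DLX6, against 2.42 and 2.76 FPKM with si-control. The lower si-DLX6 library was above the higher si-control library, and reads were 196% of si-control (177% to 217%). It rose by 0.74 on the log2 scale (SE 0.18, adjusted p = 0.0335, limma with Benjamini-Hochberg adjustment). Leaving out si-DLX6 library 2, si-control library 1 or si-control library 2 gave an adjusted p of 0.137, 0.124 or 0.0849 (limma). *LAMA2* lies on chromosome 6 from 128883141 to 129516569, plus strand. *LAMA5*, the alpha chain common in adult epithelial basement membranes, had 1.98 and 2.28 FPKM with si-DLX6, against 2.07 and 2.05 FPKM with si-control. It did not pass (log2 fold change 0.03, adjusted p = 0.908, limma), and its direction turned with median-of-ratios scaling and without si-DLX6 library 2.

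The widely expressed chains *LAMB1* and *LAMC1* did not pass the test. *LAMB1* had 12.7 and 14.3 FPKM with si-DLX6, against 11.1 and 11.8 FPKM with si-control (log2 fold change 0.22, SE 0.12, adjusted p = 0.248, limma). *LAMC1*, the gamma chain of most laminins, had 13.9 and 15.7 FPKM with si-DLX6, against 13.6 and 16.1 FPKM with si-control, so its groups overlapped fully (log2 fold change −0.01, SE 0.13, adjusted p = 0.977, limma). *LAMC1* lies on the plus strand of chromosome 1, from 183023460 to 183145592. *LAMC3* was the lowest tested chain, with 1.30 and 1.46 FPKM with si-DLX6, against 1.25 and 1.05 FPKM with si-control (adjusted p = 0.592, limma).

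**Figure D2:**
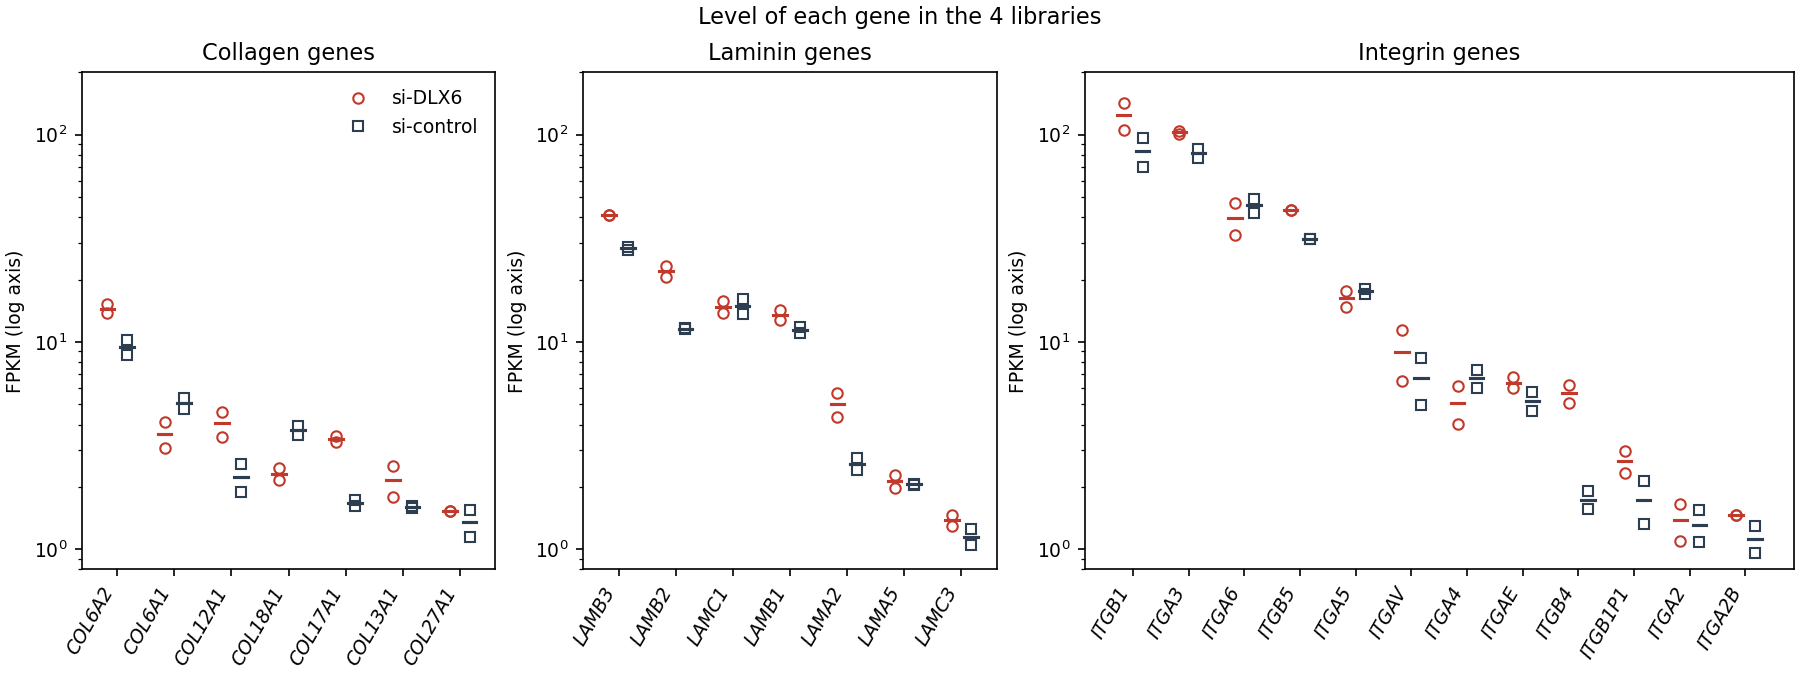
FPKM of 26 of the 27 genes in the 4 libraries on a log axis, in 3 panels for collagens, laminins and integrins (circles, si-DLX6; squares, si-control; lines, group means, n = 2 each). *LAMB3* leads the laminins at 40.9 and 41.1 FPKM with si-DLX6 against 27.9 and 28.8 FPKM with si-control, and *ITGB1* and *ITGA3* lead the integrins.

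Among integrins, the beta subunits *ITGB4* and *ITGB5* rose. Of the 8 alpha subunits tested 0 were called, against 19.6% of all genes called in either direction, and a difference between alpha and beta subunits was not tested. *ITGB4*, the hemidesmosomal beta subunit whose long cytoplasmic tail binds plectin, had 5.10 and 6.20 FPKM with si-DLX6, against 1.91 and 1.56 FPKM with si-control. Its averages were 5.65 ± 0.777 FPKM with si-DLX6 and 1.73 ± 0.246 FPKM with si-control (SD, n = 2 each), from 330 and 408 reads against 142 and 93 reads. It had the largest fold change of the 27 genes, at 323% of si-control reads (279% to 376%). The log2 fold change was 1.28 (SE 0.17, adjusted p = 0.00758, limma with Benjamini-Hochberg adjustment; 0.0133 to 0.0262 with 1 library left out). The gene lies on chromosome 17 from 75721328 to 75757818, plus strand.

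The only alpha partner of *ITGB4* is *ITGA6*, which can also pair with *ITGB1*. *ITGA6* had 32.8 and 46.7 FPKM with si-DLX6, against 41.9 and 49.2 FPKM with si-control. Its libraries overlapped between groups, and library 2 was the higher one in both. It did not pass (log2 fold change −0.21, SE 0.18, adjusted p = 0.443, limma), and without si-DLX6 library 1 the value was 0.04. The ratio of *ITGB4* to *ITGA6* FPKM was 0.155 and 0.133 with si-DLX6, against 0.0455 and 0.0316 with si-control. *ITGB4* transcripts thus stayed well under those of *ITGA6* in every library. *ITGB4* made up 3.28% and 3.22% of the summed FPKM of the 8 beta subunits, those under the level filter included, with si-DLX6, against 1.84% and 1.19% with si-control.

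*ITGB5*, which pairs with *ITGAV* to bind vitronectin, had 43.4 and 43.1 FPKM with si-DLX6, against 31.5 and 31.3 FPKM with si-control. Replicates lay very close together and the groups apart, with reads at 138% of si-control (131% to 144%). The log2 fold change was 0.45 (SE 0.09, adjusted p = 0.0238, limma with Benjamini-Hochberg adjustment). The call did not hold with median-of-ratios scaling (0.36, adjusted p = 0.0652), upper-quartile scaling (0.41, adjusted p = 0.0504) or any 1 library left out (0.0815 to 0.0877, all limma). *ITGB5* lies on chromosome 3 from 124761948 to 124901418, minus strand. *ITGAV*, its partner, had 6.50 and 11.4 FPKM with si-DLX6, against 4.97 and 8.40 FPKM with si-control. Library 2 of each group was the higher, the groups overlapped, and *ITGAV* did not pass (log2 fold change 0.36, SE 0.30, adjusted p = 0.429, limma; 0.127 to 0.999 with 1 library left out).

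*ITGB1*, the shared beta subunit of most matrix-binding integrins, was the most abundant beta subunit in every library. It had 106 and 142 FPKM with si-DLX6, against 69.6 and 96.8 FPKM with si-control. Both si-DLX6 libraries were above both si-control libraries, but library 2 was well above library 1 in both groups, and the gene missed the threshold (log2 fold change 0.57, SE 0.20, adjusted p = 0.0882, limma with Benjamini-Hochberg adjustment). Without si-DLX6 library 1 or without si-control library 2 the log2 fold change was 0.78 or 0.81 (adjusted p 0.0459 or 0.0378, limma). Without si-DLX6 library 2 or without si-control library 1 it was 0.36 or 0.34 (adjusted p 0.275 or 0.292, limma). By limma-voom on recovered reads the adjusted p was 0.0339. The row *ITGB1P1*, a processed pseudogene that shares sequence with *ITGB1*, had 2.32 and 2.98 FPKM with si-DLX6, against 1.32 and 2.13 FPKM with si-control. Its reads cannot be told apart from those of *ITGB1* with certainty, and the ratio of *ITGB1* to its pseudogene was 45.6 and 47.5 with si-DLX6, against 52.8 and 45.5 with si-control.

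Among alpha subunits, *ITGA3*, which binds epithelial laminins as a partner of *ITGB1*, was the most abundant. It had 101 and 104 FPKM with si-DLX6, against 85.2 and 77.5 FPKM with si-control. The groups did not overlap, and the adjusted p was 0.0595 (log2 fold change 0.33, SE 0.10, limma). *ITGA3* made up 59.0% and 52.4% of the summed FPKM of the 18 alpha subunits, those under the level filter included, with si-DLX6, against 51.2% and 45.4% with si-control. *ITGA6* made up 19.2% and 23.5% with si-DLX6, against 25.2% and 28.8% with si-control. These shares were not tested. *ITGA5*, the fibronectin receptor subunit, had 14.8 and 17.7 FPKM with si-DLX6, against 17.1 and 18.1 FPKM with si-control (adjusted p = 0.577, limma), and its groups overlapped. *ITGA4*, which binds fibronectin and the cell-surface ligand VCAM1, had 4.03 and 6.12 FPKM with si-DLX6, against 5.99 and 7.36 FPKM with si-control (adjusted p = 0.269, limma). *ITGA2*, a collagen receptor subunit, *ITGA2B*, the platelet subunit, and *ITGAE*, known from lymphocytes within epithelia, had log2 fold changes of 0.04 to 0.26 and did not pass. For *ITGA2* the direction turned with median-of-ratios scaling and without si-DLX6 library 2 or si-control library 1.

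**Figure D3:**
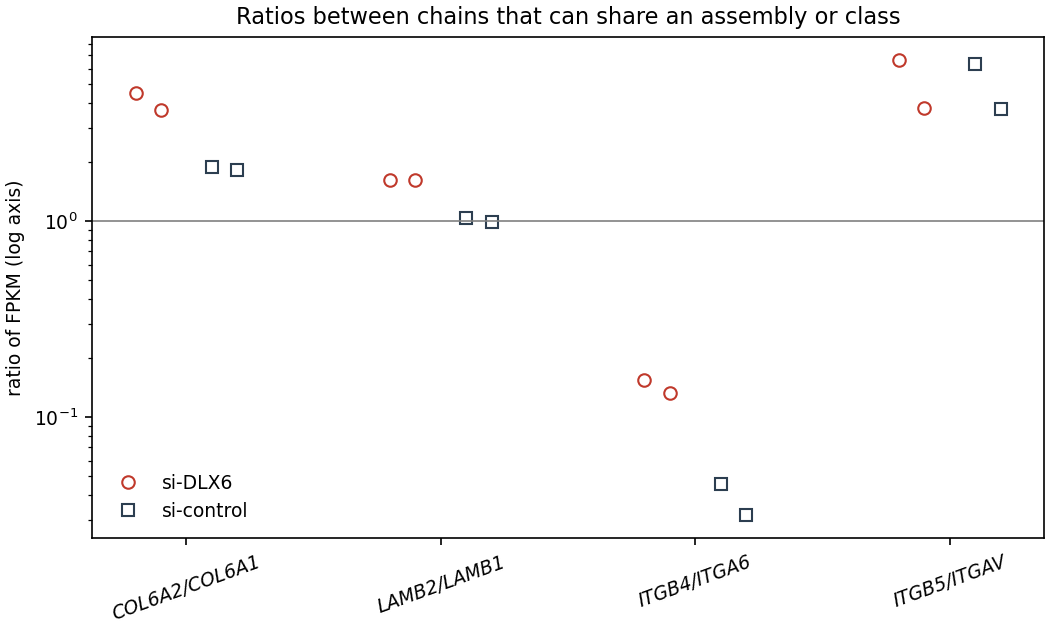
Ratio of FPKM between 2 chains in each library, on a log axis (circles, si-DLX6; squares, si-control). Each ratio sets a gene called higher over a chain that was not called, so the ratios are not results apart from the calls. The groups are apart for *COL6A2* over *COL6A1*, *LAMB2* over *LAMB1* and *ITGB4* over *ITGA6*. The ratio of *ITGB5* to *ITGAV* was 6.67 and 3.79 with si-DLX6 and 6.34 and 3.73 with si-control.

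Of the 44 collagen rows 7 passed the level filter, and 2 of these rose. *COL17A1*, the transmembrane collagen of hemidesmosomes, had 3.54 and 3.31 FPKM with si-DLX6, against 1.62 and 1.73 FPKM with si-control. These averaged 3.42 ± 0.16 FPKM with si-DLX6 and 1.68 ± 0.076 FPKM with si-control (SD, n = 2 each), and reads were 205% of si-control (173% to 243%). It rose by 0.72 on the log2 scale (SE 0.16, adjusted p = 0.0270, limma with Benjamini-Hochberg adjustment). With any 1 library left out the adjusted p was 0.0701 to 0.106 (limma). *COL17A1* spans 104031286 to 104085957 on the minus strand of chromosome 10.

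*COL6A2*, a chain of the microfibril-forming type VI collagen, was the most abundant collagen, with 13.8 and 15.2 FPKM with si-DLX6, against 10.2 and 8.64 FPKM with si-control. Reads were 152% of si-control (139% to 167%), and the log2 fold change was 0.57 (SE 0.14, adjusted p = 0.0326, limma with Benjamini-Hochberg adjustment). The call was lost with median-of-ratios scaling (0.48, adjusted p = 0.0544) and with any 1 library left out (adjusted p 0.0507 to 0.140, limma). *COL6A1*, the neighbouring chain of the same collagen, had 3.07 and 4.11 FPKM with si-DLX6, against 5.39 and 4.74 FPKM with si-control. Both of its si-DLX6 libraries were the lower ones, and it did not pass (log2 fold change −0.41, SE 0.18, adjusted p = 0.148, limma). The ratio of *COL6A2* to *COL6A1* was 4.48 and 3.70 with si-DLX6, against 1.90 and 1.82 with si-control. With 2 libraries a group, an exact permutation test of a ratio cannot give a two-sided p below 0.333, and the ratios are given as descriptions. The genes lie on the plus strand of chromosome 21, *COL6A1* from 45981737 to 46005050 and *COL6A2* from 46098097 to 46132849. *COL6A3*, the third chain of this collagen, had 1 read in 1 si-DLX6 library.

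*COL18A1*, a basement membrane collagen whose end fragment is endostatin, had 2.15 and 2.46 FPKM with si-DLX6, against 3.93 and 3.57 FPKM with si-control. It was the other gene of the 27 with both si-DLX6 libraries below both si-control libraries, at 61.2% of si-control reads (53.2% to 70.4%). The adjusted p was 0.0671 (log2 fold change −0.52, SE 0.16, limma with Benjamini-Hochberg adjustment). It passed as lower with median-of-ratios scaling (−0.59, adjusted p = 0.0400), upper-quartile scaling (−0.55, adjusted p = 0.0495) and limma-voom (−0.71, adjusted p = 0.0146), and missed the threshold with any 1 library left out (0.130 to 0.253, limma). *COL12A1*, which binds the surface of collagen fibrils, had 3.49 and 4.60 FPKM with si-DLX6, against 1.88 and 2.58 FPKM with si-control. It lay at 185% of si-control reads (166% to 205%) but missed the threshold (log2 fold change 0.64, SE 0.20, adjusted p = 0.0661, limma; 0.0713 to 0.255 with 1 library left out; 0.0108 by limma-voom). *COL13A1*, a transmembrane collagen, and *COL27A1*, a fibrillar collagen known from cartilage, had log2 fold changes of 0.27 and 0.11 and did not pass. The direction of *COL27A1* turned without si-control library 2.

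Replicates differed in the same direction in both groups for many of these genes. Library 2 was higher than library 1 in both groups for 13 of the 27 genes and lower in both for 3. *ITGAV*, *ITGB1*, *ITGA6* and *COL12A1* were among the 13. The median absolute log2 difference between replicates was 0.17 with si-DLX6 and 0.15 with si-control over the 27 genes, and 0.17 and 0.16 over all genes tested.

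The 44 rows under the level filter were not tested. With at least 20 reads in the 4 libraries together there were 22 of them, of which 13 had both si-DLX6 libraries above both si-control libraries, against 40.2% of the 3458 such rows in the table. Only *ITGA10* of the 22 had both below (4.55%, against 13.5% of such rows), at 0.696 and 0.633 FPKM with si-DLX6 and 0.891 and 1.04 FPKM with si-control. *COL4A5*, a chain of network-forming basement membrane collagen, had 0.903 and 1.42 FPKM with si-DLX6, against 0.493 and 0.584 FPKM with si-control, or 218% of si-control reads (165% to 290%). *COL1A1*, the main fibrillar collagen chain of connective tissue, had 29 and 24 reads with si-DLX6, against 8 and 6 reads with si-control, at 0.467 and 0.380 against 0.112 and 0.105 FPKM. *ITGB2*, the beta subunit of leukocytes, had 15 and 21 reads with si-DLX6, against 4 and 5 reads with si-control. *ITGB6*, an epithelial partner of *ITGAV*, had 14 and 14 reads with si-DLX6, against 3 and 6 reads with si-control. The widespread type IV collagen chains were near absent, *COL4A1* with 1 read in each library and *COL4A2* at 0 in all. *ITGBL1*, which fits the naming pattern, encodes an integrin-beta-like protein rather than a subunit.

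**Figure D4:**
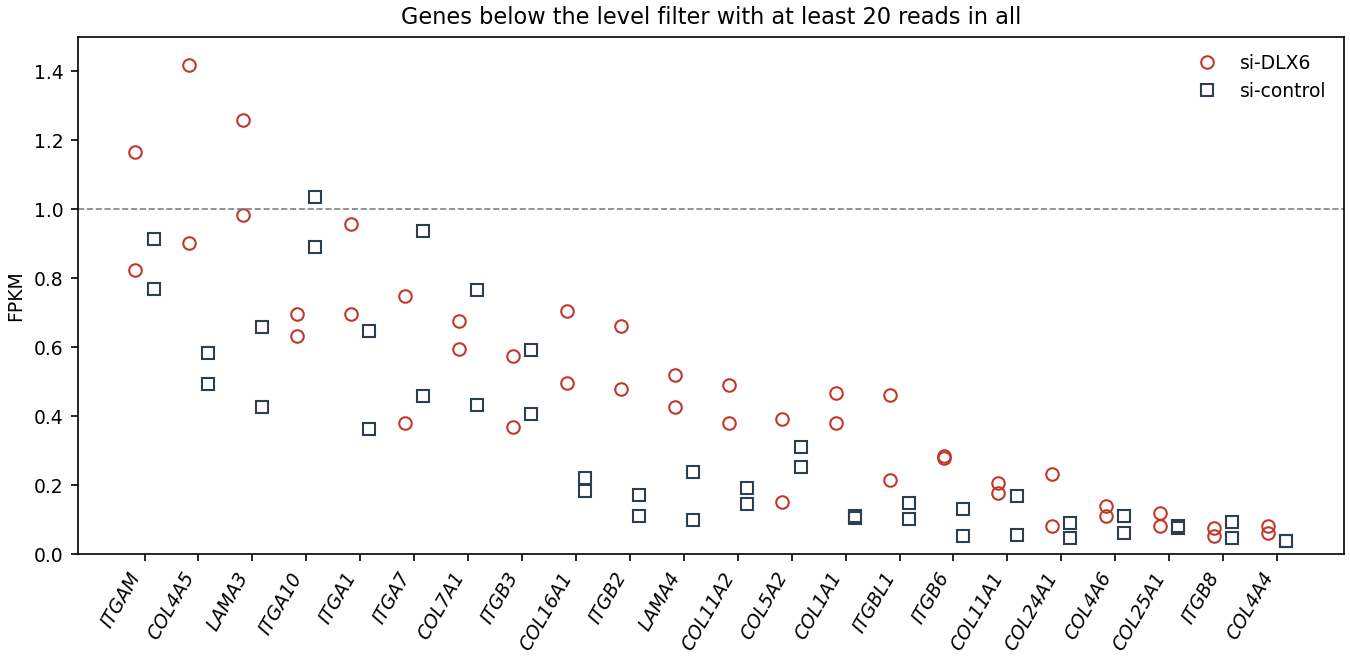
FPKM in the 4 libraries of the 22 rows under the level filter with at least 20 reads in all (circles, si-DLX6; squares, si-control; dashed line, 1 FPKM). For 13 of the 22 both circles lie above both squares, and for *ITGA10* both lie below.

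Genes that work with these chains were counted from lists chosen with earlier results known. Of 21 tested matrix partners, such as fibulins and matricellular proteins, 10 rose and 1 fell, against 10.2% higher and 9.49% lower over all genes. Their median log2 fold change was 0.68, against 0.05 over all genes. Of the 10, *SPARC* and *NOV* were under 1 FPKM in both si-control libraries and reached the level filter through the si-DLX6 libraries alone. They were thus tested because they were high with si-DLX6, and both the count of 10 and the median include them. *NOV* had 29 and 39 reads with si-DLX6, against 9 and 5 reads with si-control. *EFEMP2*, a fibulin needed for elastic fibres, had 26.3 and 23.2 FPKM with si-DLX6, against 9.01 and 8.34 FPKM with si-control (log2 fold change 1.41, adjusted p = 0.00316, limma). *CTGF*, a matricellular protein that binds integrins, had 77.5 and 85.3 FPKM with si-DLX6, against 44.8 and 44.2 FPKM with si-control (0.85, adjusted p = 0.00536, limma). *SPP1*, osteopontin, a ligand of *ITGAV* integrins, was the 1 that fell, with 2.89 and 2.58 FPKM with si-DLX6, against 10.0 and 9.28 FPKM with si-control (−1.51, adjusted p = 0.00383, limma).

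Of 26 collagen-modifying enzymes and chaperones tested, 5 rose and 1 fell, a share near the 19.6% of all genes called in either direction. The median was 0.03. *SERPINH1*, the collagen chaperone of the endoplasmic reticulum, had 102 and 100 FPKM with si-DLX6, against 66.2 and 66.8 FPKM with si-control (log2 fold change 0.60, adjusted p = 0.00993, limma). *LOXL2*, a cross-linking oxidase, had 37.4 and 42.0 FPKM with si-DLX6, against 24.3 and 27.1 FPKM with si-control (0.61, adjusted p = 0.0173, limma). *BMP1*, which cleaves procollagen ends, also rose (0.73, adjusted p = 0.0215, limma).

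The list of adhesion adaptors held proteins that link integrin tails to the cytoskeleton, and also other membrane and signalling proteins of adhesion. Of 28 tested, 6 rose and 1 fell, against 10.2% higher and 9.49% lower over all genes, with a median of 0.24. *PARVA*, a partner of integrin-linked kinase, had 9.98 and 10.4 FPKM with si-DLX6, against 5.95 and 6.20 FPKM with si-control (log2 fold change 0.66, adjusted p = 0.0188, limma). *LPXN*, leupaxin, had 3.36 and 3.05 FPKM with si-DLX6, against 1.08 and 0.777 FPKM with si-control (1.13, adjusted p = 0.0107, limma). Its relative *PXN*, paxillin, fell, at 56.9 and 59.4 FPKM with si-DLX6 and 87.2 and 79.7 FPKM with si-control (−0.51, adjusted p = 0.0186, limma). Of the hemidesmosome partners, looked up after values were seen, *PLEC* (plectin) rose, with 34.4 and 43.6 FPKM with si-DLX6 against 26.9 and 26.2 FPKM with si-control (0.53, SE 0.13, adjusted p = 0.0386, limma). *DST* (0.22, adjusted p = 0.406) and *CD151* (0.04, adjusted p = 0.834) did not pass (limma).

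Of 20 matrix proteases and inhibitors tested, 8 rose and 1 fell, against 10.2% higher and 9.49% lower over all genes. Their median was 0.34. *TIMP1*, an inhibitor of matrix metalloproteinases, had 261 and 206 FPKM with si-DLX6, against 143 and 115 FPKM with si-control (log2 fold change 0.85, adjusted p = 0.0167, limma). *RECK*, a membrane-anchored inhibitor (1.15, adjusted p = 0.0151), and *MMP17*, a membrane-anchored protease (0.98, adjusted p = 0.0154), also rose (limma). *MMP17* reached the level filter through the si-DLX6 libraries alone, as did *CTSK*, which was not called. The count of 8 includes *MMP17*, and the median includes both. Of 11 non-integrin matrix receptors tested, 2 rose and 0 fell, a share near the 19.6% of all genes called in either direction. The median was 0.18. *BCAM*, a receptor of the *LAMA5* chain, had 14.7 and 17.2 FPKM with si-DLX6, against 9.37 and 8.67 FPKM with si-control (log2 fold change 0.76, adjusted p = 0.0141, limma). *CD47*, which binds thrombospondin and associates with integrins, had 14.2 and 16.7 FPKM with si-DLX6, against 8.83 and 10.7 FPKM with si-control (0.61, adjusted p = 0.0330, limma).

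**Figure D5:**
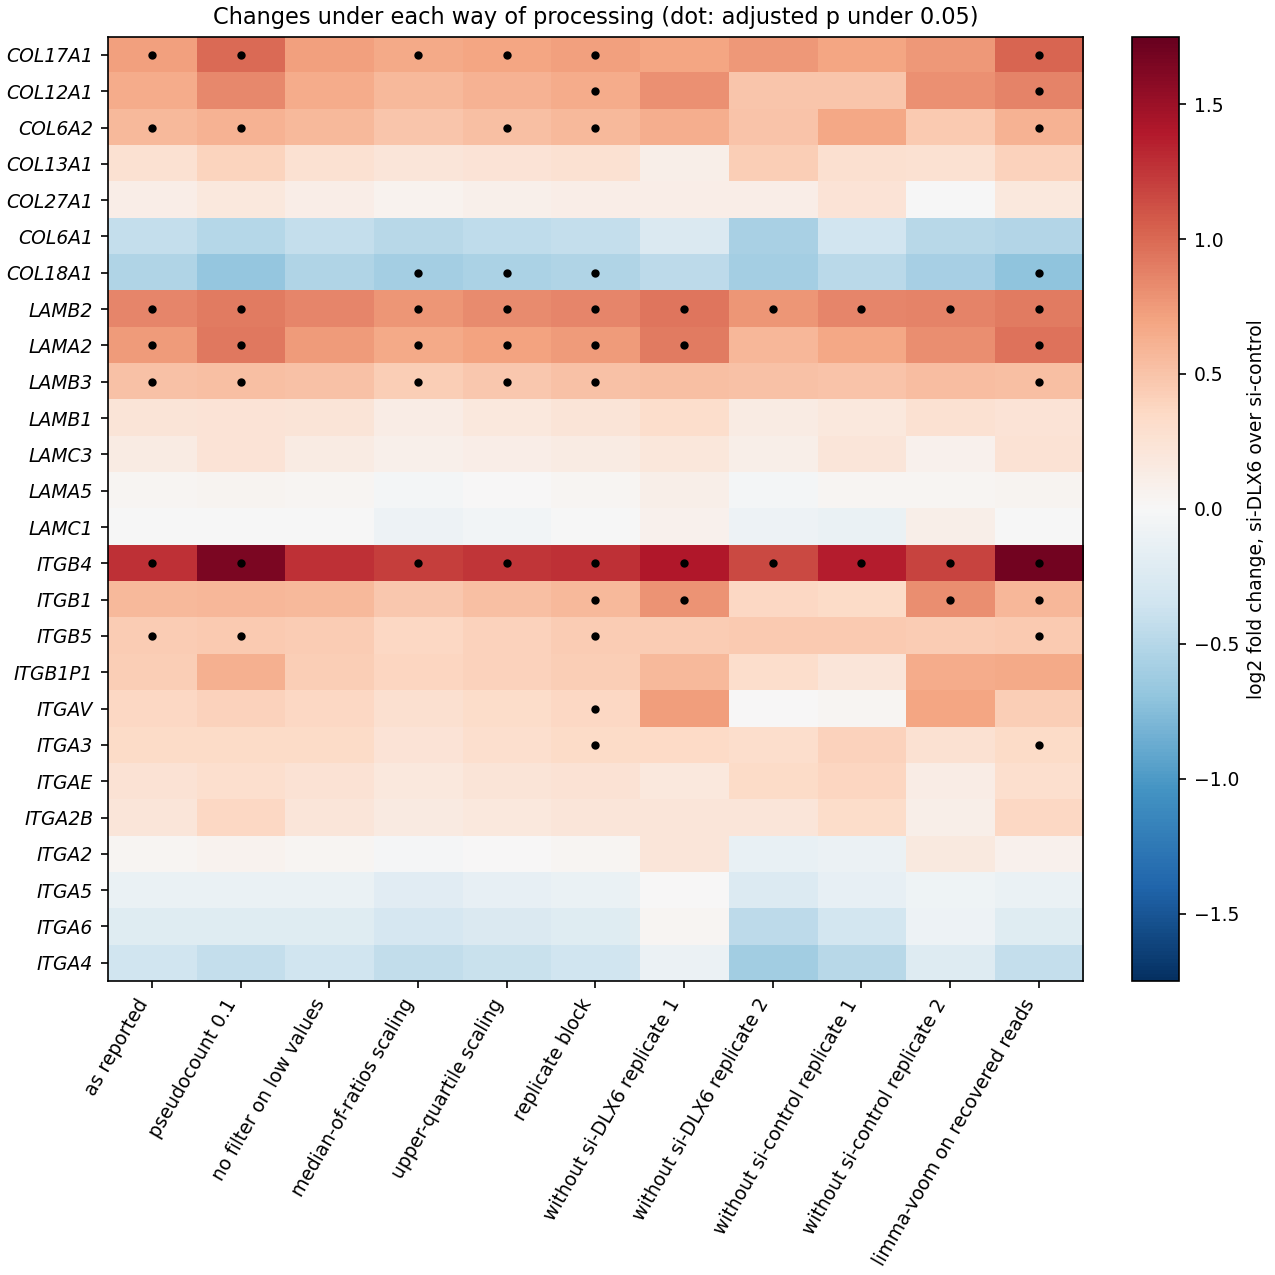
Log2 fold change of 26 of the 27 genes (rows) under each way of processing (columns), si-DLX6 over si-control, with a dot where the adjusted p was under 0.05. *ITGB4* and *LAMB2* carry dots in every column but that with no filter on low values, where 0 of the 26 have one.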

How the data were processed

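Per the labels' protocols, 1.3 µg of total RNA went into each SMARTER mRNA-Seq library. Small interfering RNA sequences, aligner, counter and strand use are not given in the sources used. Reads of a gene and an antisense partner therefore cannot be told apart. The authors deposited 1 table with 1 value column per library, whose header names no unit. Its values were taken as FPKM made by the authors. Each gene's values are whole multiples of a step, which other scalings of reads would also give. For 26 of the 27 genes, the step implied a length of 85.1% to 145% of the longest GENCODE transcript. A mouse build (GRCm38, mm10) stands in the submitters' processing notes, but the rows carry human symbols. The build is therefore unknown and positions come from GENCODE release 29 (GRCh38) by symbol. Samples were grouped by their titles.

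Values above 0 of all 28637 such rows gave whole reads (within 0.0001). Library totals were set from the median over 13 mitochondrial genes, of which 11 lay within 1% of that median. A factor shared by all reads of a row is lost by division. From transcript length, a factor of 2 was put back for *COL17A1* and *LAMB2* for the printed reads, but not for limma-voom. Lost factors were also put back for some rows of the 3 families under the level filter, such as *ITGA1*. For other rows of the table they were not, so the cut at 20 reads may leave out some of those rows. Read ratios have exact 95% binomial intervals, which cover counting error only.

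Genes were tested in R 4.3.3 with limma 3.58.1 (limma-trend, group as the sole term) on log2(FPKM + 1), for genes at 1 FPKM or more in 2 libraries. The pseudocount understates changes of low genes. The genes, lists and motifs were chosen with earlier results of these data known. Named were all called members, their partner chains and the most abundant members, and up to 3 called genes by smallest p from each further list. *SPARC*, *NOV* and the hemidesmosome partners were named besides. Alternatives were a pseudocount of 0.1, no filter, median-of-ratios and upper-quartile scaling, leaving out each library, a block for replicate number, and limma-voom on recovered reads. 1 of the 27 genes is counted but not reported singly here.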

Additional observations from a re-analysis of the deposited data

How the results depend on the processing

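With a pseudocount of 0.1, all 27 genes kept their direction and their side of the threshold. No filter left 0 called higher in each family (main counts 2 collagens, 3 laminins, 2 integrins), with 167 higher and 205 lower over all genes. Median-of-ratios scaling gave 1 collagen higher and 1 lower, 1 integrin higher, and 1088 higher and 1816 lower over all genes. Upper-quartile scaling gave 1 collagen lower and 1 integrin higher. Limma-voom gave 1 collagen lower, 4 integrins higher and 2110 genes higher over all. With the replicate number as a block, 1 collagen was lower, 5 integrins were higher, and 2749 genes were higher and 2370 lower over all. The labels do not say what the numbers share, and deviations of same-numbered libraries correlated at 0.20 over all genes and 0.68 over the 27, in 2 pairs only. The block brought 5 genes past the threshold (limma adjusted p): *ITGB1* (0.00513), *COL12A1* (0.0205), *ITGA3* (0.0252), *COL18A1* (0.0428) and *ITGAV* (0.0474). Leaving out 1 library gave 0 collagens, 1 to 2 laminins and 1 to 2 integrins higher, and 682 to 852 higher and 683 to 915 lower over all genes. 0 of the 3 families had a gene called lower in these fits.

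Direction turned for 6 of the 27 genes, 0 of them called. With 1 library left out, the log2 fold change of *COL27A1* was −0.0094 to 0.23, of *ITGA2* −0.14 to 0.21, of *ITGA5* −0.23 to 0.010, of *ITGA6* −0.46 to 0.039, of *LAMA5* −0.036 to 0.10 and of *LAMC1* −0.12 to 0.11. With median-of-ratios scaling *ITGA2* was at −0.019 and *LAMA5* at −0.031. The cause was not tested. Where a group was left with 1 library, that library was assumed to vary like the others. Depth limits the genes under the level filter.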
